A study of Mus musculus with 6 samples.

Results

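The 10 genes described here encode the 4 kinases that phosphorylate the translation initiation factor eIF2 (Eif2ak1 to Eif2ak4), their substrate (Eif2s1), the 2 regulatory subunits of the phosphatase that removes that phosphate (Ppp1r15a and Ppp1r15b), and 3 genes of the unfolded protein response (the sensor genes Ern1 and Atf6, and Xbp1). They were taken by gene symbol, as the rows of the deposited count table whose Ensembl identifiers carry these symbols in GENCODE vM21. The table lists 49584 gene identifiers, all 10 genes were found in it, and all 10 passed the filter on low counts that left 13474 genes for testing. Full-length poly(A) cDNA was sequenced by Smart-seq2, which amplifies it by PCR, from sorted germ cells at the leptotene and zygotene stages of meiosis, when chromosomes begin to pair. The cells were taken from mice at postnatal day 12 by fluorescence-activated sorting. Of the 6 libraries, 3 carry the genotype Srp68 SKO and 3 the genotype wild type. SRP68 is part of the signal recognition particle, the carrier of ribosomes that make secretory and membrane proteins toward the endoplasmic reticulum (ER). The sources used here do not give how the knockout was made, in which cells it acts, or whether replicates came from separate animals. All p-values therefore measure the spread between these libraries alone, which may be technical.

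The integrated stress response turns on when a kinase phosphorylates the alpha subunit of eIF2. This slows most translation initiation while favouring the transcription factor ATF4, and the phosphatase PP1 bound to GADD34 (Ppp1r15a) or CReP (Ppp1r15b) reverses it. Each kinase answers to its own stress: HRI (Eif2ak1) to haem shortage and mitochondrial stress, PKR (Eif2ak2) to double-stranded RNA, PERK (Eif2ak3) to unfolded protein in the ER, and GCN2 (Eif2ak4) to uncharged tRNA. PERK, IRE1 (Ern1) and ATF6 are the 3 sensors of the unfolded protein response in the ER membrane, and IRE1 acts by cutting a short segment out of the Xbp1 mRNA.

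The sites at which these proteins act are shown because neither reaction can be read from counts per gene. The first line is from exon 4 of Xbp1 (chr11:5524267-5524316, GRCm38, plus strand, transcript sequence from GENCODE), with the 26 bases that IRE1 removes in capitals, found by the pair of CNGCAGC sequences that mark its cuts. The second line is from exon 2 of Eif2s1 (chr12:78866659-78866703, plus strand), with the codon of the phosphorylated serine in capitals, codon 52 from the ATG, which is residue 51 in the usual numbering.
Xbp1: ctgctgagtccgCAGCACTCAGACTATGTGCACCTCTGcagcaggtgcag
Eif2s1: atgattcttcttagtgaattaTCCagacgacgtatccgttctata
Both Xbp1 forms fall into a single count, and phosphorylation of the protein leaves its mRNA as it is. The values below are therefore transcript levels and do not measure the activity of any kinase, phosphatase or sensor.

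The libraries held 11853738 to 15381473 counts, and 3 counts corresponded to 0.174 to 0.289 CPM (counts scaled to the library total, with the totals adjusted by TMM, edgeR's trimmed mean of M values). Srp68 was at 21.7, 29.3 and 22.6 CPM in wild type replicates 1 to 3 and at 12.1, 6.52 and 6.93 CPM in SKO replicates 1 to 3, and no SKO library reached the wild type range. Markers of the labelled stage, 10 genes such as Sycp3 and Dmc1, summed to 14770 to 18490 CPM in wild type and 24480 to 32390 CPM in SKO libraries, and 7 of them were higher and 1 lower in SKO. Of 10 pachytene markers, 5 could be tested and all 5 were lower (458 to 497 CPM summed in wild type, 309 to 329 CPM in SKO). Most of these sums was Tbpl1, at 340 CPM in wild type and 279 CPM in SKO, or 82.2% of wild type. The others tested, Ldhc, Piwil1, Clgn and Ybx2, were at 22.9, 24.8, 31.2 and 36.6% of wild type. Lists of 8 genes each summed to 369 to 440 CPM and 259 to 320 CPM for spermatogonia, 41.7 to 53.03 CPM and 21.3 to 104 CPM for Sertoli cells, 5.70 to 22.8 CPM and 19.1 to 30.5 CPM for Leydig and myoid cells, and 5.03 to 108 CPM and 29.5 to 118 CPM for macrophages, endothelium and blood, wild type first. Of the spermatogonial genes, 7 were tested and 2 were lower, and of the 6 Sertoli genes tested the lowest edgeR adjusted p was 0.054. The Sertoli gene Clu was at 41.1, 34.4 and 23.5 CPM in wild type and at 18.7, 12.4 and 75.2 CPM in SKO replicates 1 to 3. Of the 4 Leydig and myoid genes tested, Acta2, the smooth muscle actin gene, was higher (1.44 ± 0.598 to 6.85 ± 4.74 CPM, edgeR adjusted p = 0.00763). In SKO replicates 1 to 3 Acta2 was at 3.87, 4.37 and 12.3 CPM, so replicate 3 was the highest. Dcn of the same list was instead highest in SKO replicate 1, at 16.0, 3.26 and 4.33 CPM. Among the Leydig cell genes Cyp11a1 had no count in any library, while Star was at 0.451 to 6.60 CPM in wild type and 4.53 to 8.66 CPM in SKO and Hsd3b1 had 33 counts in SKO replicate 2. Of the 3 tested genes of the macrophage, endothelial and blood list, the macrophage gene Lyz2 was higher (edgeR adjusted p = 0.0454), at 25.2 CPM in SKO replicate 3 and 0.129 to 2.16 CPM in the other 5 libraries. The largest sums of that list were mostly globin. Hba-a1 and Hbb-bs were at 78.8 and 26.7 CPM in wild type replicate 3 and at 50.3 and 66.3 CPM in SKO replicate 2. In wild type replicates 1 and 2 they were at 0.580 to 1.85 CPM. For all tested genes the shares called were 14.1% higher and 14.4% lower. The part of these stage and cell markers in the results on the 10 genes was not tested. In bulk libraries such as these, fewer cells of a type and less RNA per cell cannot be told apart.

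Of the 10 genes, 1 (Ppp1r15b) rose, 1 (Eif2ak1) fell and 8 did not pass at an adjusted p under 0.05 by edgeR's quasi-likelihood test, adjusted by Benjamini-Hochberg over the 13474 genes. The same test called 28.5% of all tested genes, 14.1% higher and 14.4% lower, so 2 calls among 10 genes are close to that background. The levels of the 2 genotypes did not overlap for 5 of the 10 genes, 3 with SKO higher and 2 with SKO lower, beside 43.8% of all tested genes (21.6% with SKO higher and 22.2% with SKO lower). The median log2 fold change of the 10 genes was 0.28, and that of all tested genes was -0.03. With library totals as the only scaling, the median of all tested genes moved to -0.29 and the share of calls that were higher fell from 49.5% to 24.2%, and each of the 10 log2 fold changes was lower under that scaling.

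**Figure D1:**
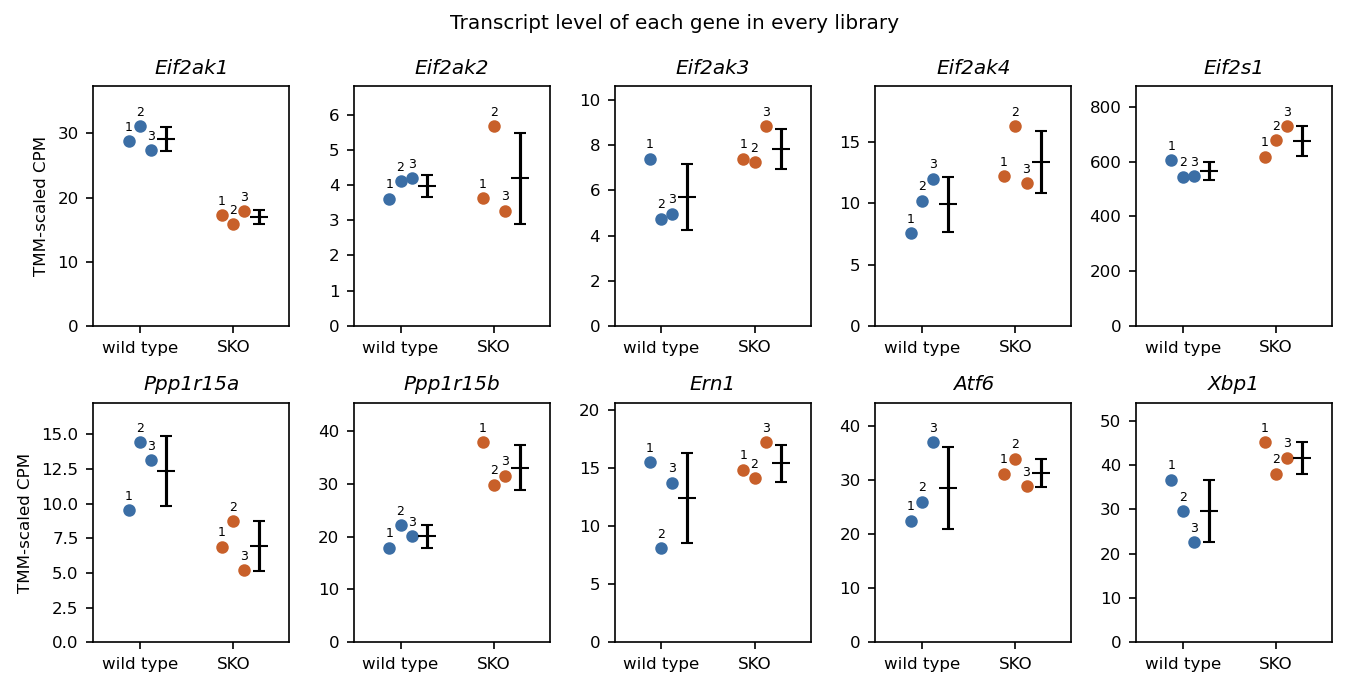
TMM-scaled CPM of each of the 10 genes in the 3 wild type (blue) and 3 Srp68 SKO (orange) libraries, with the replicate number at each point and the mean ± SD of 3 libraries beside the points. Eif2ak1 and Ppp1r15a lie lower in every SKO library, and Eif2s1, Ppp1r15b and Xbp1 higher, while the other 5 genes overlap between genotypes.

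Transcript levels of the 10 genes spanned a wide range, compared here per kb of exon length. In wild type cells Eif2s1 stood far above the rest at 114 ± 6.92 CPM per kb (SD, n = 3). Xbp1 followed at 9.14 ± 2.17 CPM per kb and was also apart from its neighbours in the order. Eif2ak1 (5.14 ± 0.338), Ppp1r15a (4.21 ± 0.864), Ppp1r15b (3.59 ± 0.382) and Atf6 (3.09 ± 0.816 CPM per kb) came next, and neighbours among these 4 overlapped. The lowest levels belonged to Ern1 (1.53 ± 0.474), Eif2ak4 (1.33 ± 0.2999), Eif2ak3 (0.948 ± 0.245) and Eif2ak2 (0.777 ± 0.0618 CPM per kb), again with overlap between neighbours. All libraries of these 4 genes lay below those of Atf6.

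In SKO cells Eif2s1 (136 ± 11.4) and Xbp1 (12.8 ± 1.08 CPM per kb) again led the order. Ppp1r15b (5.90 ± 0.753 CPM per kb) came next and was apart from Atf6 (3.40 ± 0.277 CPM per kb) below it. Eif2ak1 stood at 3.00 ± 0.188 CPM per kb and overlapped both of its neighbours, Atf6 and Ppp1r15a (2.37 ± 0.605 CPM per kb). Ern1 (1.89 ± 0.196) overlapped Eif2ak4 (1.79 ± 0.341), whereas Eif2ak3 (1.30 ± 0.146) and Eif2ak2 (0.819 ± 0.254 CPM per kb) each lay below the gene before them in every library.

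Among the kinases, the transcript of HRI was lower in SKO spermatocytes and the other 3 did not pass the test. Eif2ak1 (ENSMUSG00000029613, chromosome 5, 143817788 to 143904251, plus strand) was at 28.8, 31.2 and 27.4 CPM in wild type replicates 1 to 3 and at 17.3, 15.8 and 17.9 CPM in SKO replicates 1 to 3. The groups were far apart against their spread, with a ratio of means of 58.4%, SKO to wild type. Eif2ak1 fell by 0.78 on the log2 scale (SE 0.19, 95% interval -1.19 to -0.36, edgeR adjusted p = 0.00787). It passed in each of the 17 alternatives tried, with log2 fold changes of -1.04 to -0.62 and a largest adjusted p of 0.0426. Its exons overlap Aimp2 on the opposite strand over 8.59% of their length, and the counting is not stated to use strand. Aimp2, which encodes a scaffold protein of the tRNA synthetase complex, had 3578 counts over the wild type and 2473 over the SKO libraries, and its log2 fold change was -0.01 (edgeR adjusted p = 0.983).

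The ER kinase gene Eif2ak3 was at 7.41, 4.75 and 4.98 CPM in wild type and at 7.41, 7.26 and 8.85 CPM in SKO replicates 1 to 3. Wild type replicate 1 lay within the SKO range, and the log2 fold change of 0.46 (95% interval -0.26 to 1.17) did not pass (edgeR adjusted p = 0.346). Eif2ak4, the gene of the amino acid sensing kinase, was at 7.54, 10.2 and 12.0 CPM in wild type and at 12.2, 16.3 and 11.6 CPM in SKO. Wild type replicate 3 reached into the SKO range, and the log2 fold change was 0.43 (95% interval -0.17 to 1.03, edgeR adjusted p = 0.282).

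Eif2ak2, the double-stranded RNA kinase gene, rested on 34 to 71 counts per library. It was at 3.61, 4.11 and 4.19 CPM in wild type and at 3.62, 5.68 and 3.27 CPM in SKO, where replicate 2 was the highest of the 6 libraries and replicate 3 the lowest. Its log2 fold change of 0.08 had a 95% interval of -0.83 to 0.98 (edgeR adjusted p = 0.918), so changes within that interval could not be told from the spread between libraries. With library totals only, it stood at -0.19. Eif2ak3 and Eif2ak4 passed in none of 17 alternatives and Eif2ak2 in none of 16.

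The make-up of the kinase transcripts differed between genotypes on the per-kb scale. Eif2ak1 made up 63.3, 65.0 and 59.7% of the summed kinase level in wild type libraries and 46.1, 38.3 and 46.2% in SKO libraries. Eif2ak4 took 12.6, 16.2 and 19.9% and then 24.7, 30.0 and 22.9%, and Eif2ak3 15.3, 9.3 and 10.2% and then 18.6, 16.5 and 21.5%. Each of these 3 shares was separate between the genotypes, whereas that of Eif2ak2 (8.8 to 10.1% and 9.4 to 15.2%) overlapped. The summed level itself was 8.19 ± 0.234 CPM per kb in wild type and 6.91 ± 0.344 CPM per kb in SKO (SD, n = 3). Shares sum to 100%, so a lower level of Eif2ak1 raises the other shares even where those genes do not change. With the longest transcript in place of all exons, Eif2ak1 took 62.4% of the summed means in wild type and 42.9% in SKO.

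The substrate of the kinases, the alpha subunit of eIF2, had the most abundant mRNA of the 10 genes. Eif2s1 (ENSMUSG00000021116, chromosome 12, 78861819 to 78887010, plus strand) was at 605, 545 and 548 CPM in wild type and at 618, 677 and 730.0 CPM in SKO replicates 1 to 3. All SKO libraries lay above all wild type libraries, though SKO replicate 1 was close to wild type replicate 1. The log2 fold change of 0.25 (SE 0.10, 95% interval 0.04 to 0.47) did not pass (edgeR adjusted p = 0.0685). It passed with upper-quartile scaling (0.29, adjusted p = 0.0498), DESeq2 (0.27, adjusted p = 0.0332), limma-voom (0.25, adjusted p = 0.0472) and without SKO replicate 1 (0.31, adjusted p = 0.0356). It was -0.01 with library totals only and 0.01 after correction for GC content and length. Of the processed pseudogenes with at least 90% identity to Eif2s1, Gm12734 had 3 counts over the wild type and 4 over the SKO libraries, Gm13602, Gm13915 and Gm29519 had 0, and Gm7459 was not analysed here.

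The genes of the other eIF2 subunits, and of its exchange factor eIF2B, changed in both directions. eIF2 is a trimer of alpha, beta and gamma subunits, and eIF2B, which reloads it with GTP, is the complex that phosphorylated eIF2 blocks. Of 8 genes, 2 were higher, 4 lower and 2 did not pass, with a median log2 fold change of -0.36. Beside these counts, 14.1% of all tested genes were higher and 14.4% lower. Eif2s2, the beta subunit gene, rose from 1326 ± 103 to 3424 ± 364 CPM (SD, n = 3), a log2 fold change of 1.37 (edgeR adjusted p = 1.06e-06). Eif2s3y, the Y-linked gamma subunit gene, rose by 0.73 from 499.9 ± 68.4 to 830.1 ± 51.9 CPM (edgeR adjusted p = 0.000233). Its X-linked copy Eif2s3x was at 12.8 ± 1.82 and 11.8 ± 2.23 CPM (log2 fold change -0.12, edgeR adjusted p = 0.787). These copies are close in sequence, and the sources used here do not give how the counting divided reads between them, so both values are uncertain. Per kb, the alpha, beta and Y-linked gamma transcripts stood at 114, 196 and 120 CPM per kb in wild type and at 136, 507 and 199.5 CPM per kb in SKO. With the longest transcript as the length they stood at 166, 323 and 160.5 in wild type and at 198, 835 and 267 CPM per kb in SKO. The order of alpha and gamma in wild type thus depends on the length used.

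All 4 eIF2B genes that passed were lower. Eif2b2 fell by 1.35 on the log2 scale, from 54.04 ± 5.05 to 21.2 ± 5.21 CPM (edgeR adjusted p = 0.000173), and Eif2b4 from 49.6 ± 8.64 to 23.3 ± 2.28 CPM (-1.09, adjusted p = 0.000581). Both encode regulatory subunits, as does Eif2b1, which fell from 197 ± 27.6 to 130.2 ± 18.5 CPM (-0.59, adjusted p = 0.00454). Eif2b5, the catalytic subunit gene, fell from 38.6 ± 7.02 to 23.1 ± 1.92 CPM (-0.74, adjusted p = 0.0102). Eif2b3, whose protein pairs with it, was at 273 ± 42.1 and 336 ± 14.8 CPM (0.30, adjusted p = 0.0745). After correction for GC content and length, Eif2s3y (0.22, adjusted p = 0.0862), Eif2b4 (-0.45, adjusted p = 0.0839) and Eif2b5 (-0.32, adjusted p = 0.243) no longer passed, and Eif2b5 also lost its call without wild type replicate 2 (-0.65, adjusted p = 0.0509). Eif2b3 passed with DESeq2 (0.31, adjusted p = 0.0374), with a replicate block (0.31, adjusted p = 0.0451) and without wild type replicate 1 (0.42, adjusted p = 0.0268).

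**Figure D2:**
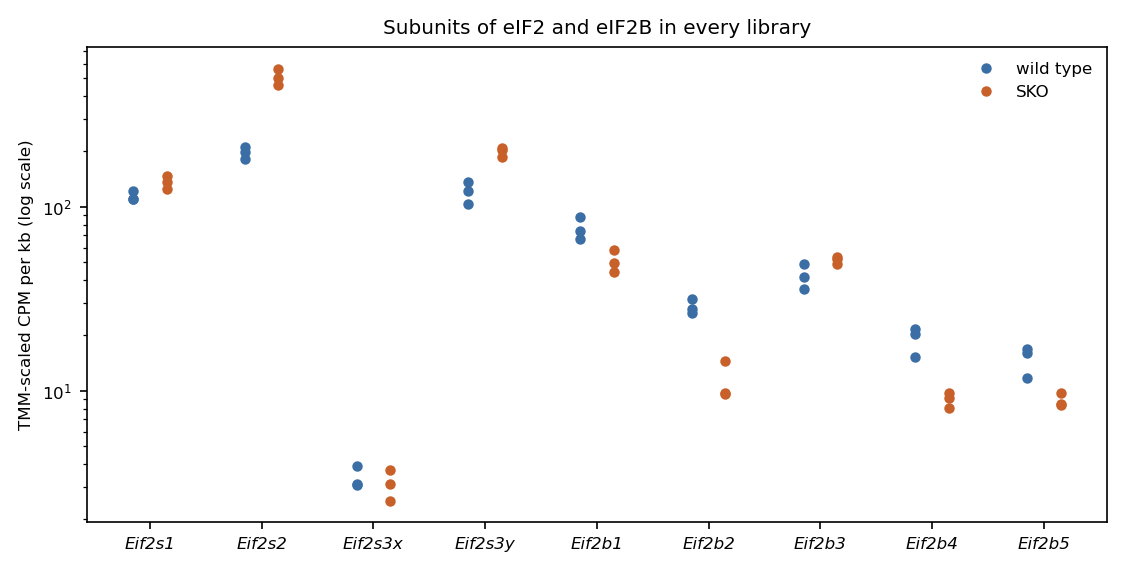
TMM-scaled CPM per kb of exon length, on a log axis, of the genes of eIF2 (Eif2s1, Eif2s2, Eif2s3x, Eif2s3y) and eIF2B (Eif2b1 to Eif2b5), with 1 point per library, wild type in blue and Srp68 SKO in orange. Eif2s2 shows the widest gap upward (196 to 507 CPM per kb by group means) and Eif2b2 the widest gap downward (28.7 to 11.3 CPM per kb).

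Of the 2 regulatory subunits of the eIF2 phosphatase, Ppp1r15b rose and Ppp1r15a did not pass, and the difference between them was not tested. Ppp1r15b, which encodes the constitutive subunit CReP (ENSMUSG00000046062, chromosome 1, 133131143 to 133139783, plus strand), was at 17.9, 22.2 and 20.1 CPM in wild type and at 37.8, 29.8 and 31.5 CPM in SKO replicates 1 to 3. Every SKO library stood above the wild type range, with replicate 1 the highest. Ppp1r15b rose by 0.72 on the log2 scale (SE 0.19, 95% interval 0.30 to 1.13, edgeR adjusted p = 0.0125). The call was lost with library totals only (0.46, adjusted p = 0.113) and without SKO replicate 1 (0.61, adjusted p = 0.0652), and it held in the other 15 alternatives. Gm26616, an annotated transcript that overlaps 11.4% of its exon length, had 16 counts over the wild type and 4 over the SKO libraries, beside 968 and 1106 for Ppp1r15b.

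Ppp1r15a encodes GADD34, the subunit that is induced during stress (ENSMUSG00000040435, chromosome 7, 45522916 to 45526268, minus strand). It was at 9.54, 14.4 and 13.2 CPM in wild type and at 6.91, 8.75 and 5.20 CPM in SKO replicates 1 to 3. All SKO libraries lay below all wild type libraries, with SKO replicate 2 close to wild type replicate 1. The log2 fold change of -0.83 (SE 0.31, 95% interval -1.49 to -0.17) did not pass (edgeR adjusted p = 0.0585). It passed with library totals only (-1.09, adjusted p = 0.018), a filter of 5 CPM (-0.84, adjusted p = 0.0439), DESeq2 (-0.82, adjusted p = 0.049) and without wild type replicate 1 (-0.99, adjusted p = 0.0487). After correction for GC content and length it stood at -0.25 (adjusted p = 0.612). The longest Ppp1r15a transcript has the highest GC content of the 10 genes, 55.7%, and the part of GC content in that shift was not tested.

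Per kb, Ppp1r15a made up 50.3, 55.3 and 55.5% of the summed level of the 2 subunits in wild type libraries and 25.9, 35.9 and 23.9% in SKO libraries. The shares did not overlap, and each SKO library carried more Ppp1r15b than Ppp1r15a. The summed level was 7.80 ± 1.24 CPM per kb in wild type and 8.27 ± 0.857 CPM per kb in SKO (SD, n = 3), so the sum differed by less than the spread between replicates. With the longest transcript as the length, the Ppp1r15a share of the summed means was 55.1% and 29.5%. The shares are not corrected for GC content. With the edgeR offsets for GC content and length, the log2 fold changes were -0.25 for Ppp1r15a (adjusted p = 0.612) and 0.86 for Ppp1r15b (adjusted p = 0.00317).

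**Figure D3:**
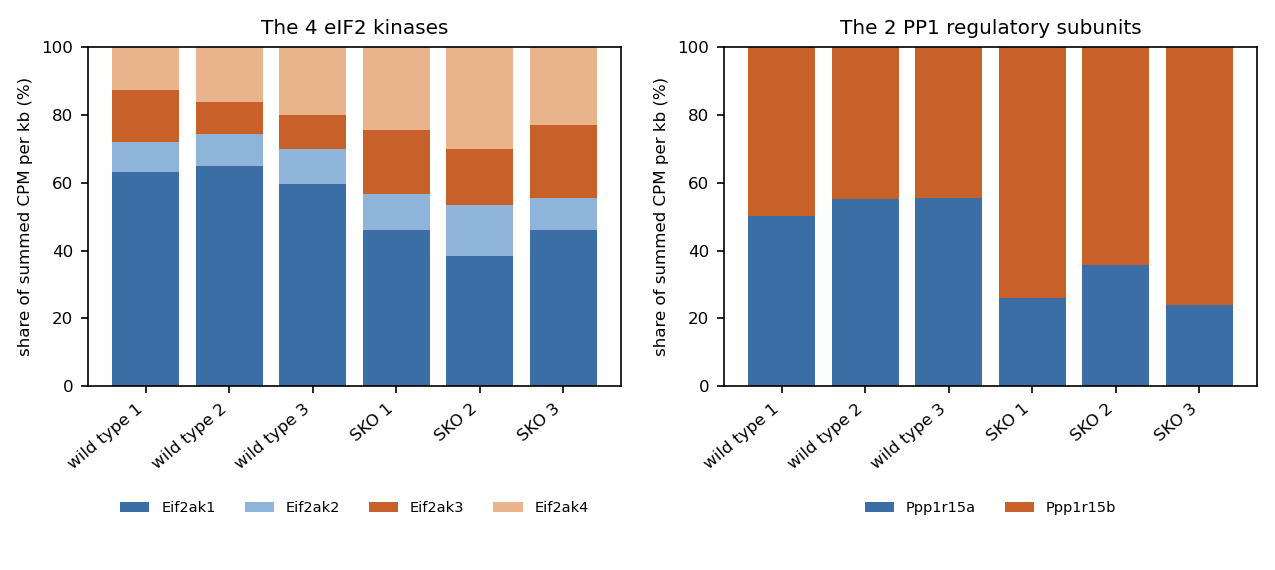
Share of each gene in the summed CPM per kb of the 4 eIF2 kinases (left) and of the 2 PP1 regulatory subunits (right), in percent, with 1 bar per library. Eif2ak1 takes 59.7 to 65.0% of the kinase sum in wild type and 38.3 to 46.2% in SKO libraries, and Ppp1r15a 50.3 to 55.5% and 23.9 to 35.9% of the subunit sum.

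Among the proteins that bind or regulate these kinases and the phosphatase, every gene that passed was lower. Of 11 genes on this list, 10 were tested, 0 were higher, 5 lower and 5 not passed by edgeR (median log2 fold change -0.81). The shares over all tested genes were 14.1% higher and 14.4% lower, and 0 higher among 10 is not far from the first. DESeq2 and limma-voom also called 0 of them higher, and 1, Nck1, was higher at an unadjusted edgeR p under 0.05. Ppp1cc, a catalytic subunit gene of PP1, fell from 73.4 ± 1.15 to 35.6 ± 3.22 CPM (edgeR adjusted p = 0.000116), and Ppp1ca, another, from 176 ± 24.2 to 107 ± 32.0 CPM (edgeR adjusted p = 0.00785). Ppp1cb, the remaining catalytic subunit gene, was at 260 ± 31.7 and 245 ± 18.3 CPM (log2 fold change -0.09, edgeR adjusted p = 0.626). Dnajc3 encodes the ER co-chaperone P58IPK, known as an inhibitor of PKR and PERK, and fell from 553 ± 79.9 to 307 ± 19.6 CPM (edgeR adjusted p = 1e-04). Tarbp2, whose protein restrains PKR, fell from 33.0 ± 3.42 to 12.1 ± 0.866 CPM (edgeR adjusted p = 0.000132). Oma1, the mitochondrial protease of the path from mitochondrial stress to HRI, fell from 20.6 ± 1.42 to 11.5 ± 3.72 CPM (edgeR adjusted p = 0.0277).

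Regulators that did not pass had log2 fold changes of -0.78 for Gcn1l1, the gene of the GCN2 activator GCN1, 0.30 for the adaptor gene Nck1, -0.60 for the PKR activator gene Prkra and -1.23 for Dele1, whose protein carries the mitochondrial signal to HRI (edgeR adjusted p 0.0548, 0.0884, 0.0965 and 0.175). After correction for GC content and length, Ppp1ca (-0.15, adjusted p = 0.457) and Oma1 (-0.74, adjusted p = 0.0506) lost their calls, while Ppp1cb was lower (-0.47, adjusted p = 0.00488). Ppp1ca also lost its call without SKO replicate 2 (-0.66, adjusted p = 0.0512), and Oma1 when any of wild type replicates 1 and 2 and SKO replicates 1 and 2 was left out (-0.85 to -0.65, adjusted p 0.0617 to 0.101). Without wild type replicate 1 Gcn1l1 passed (-0.93, adjusted p = 0.0419), and without wild type replicate 3 so did Nck1 (0.40, adjusted p = 0.0345) and Prkra (-0.83, adjusted p = 0.0136).

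Neither sensor gene changed past the threshold. Ern1, the gene of IRE1 (ENSMUSG00000020715, chromosome 11, 106394650 to 106487852, minus strand), was at 15.5, 8.11 and 13.8 CPM in wild type and at 14.9, 14.2 and 17.2 CPM in SKO replicates 1 to 3. Wild type replicate 2 was low, replicate 1 lay within the SKO range and replicate 3 lay just below it. The log2 fold change was 0.31 (95% interval -0.29 to 0.90, edgeR adjusted p = 0.451), and it was 0.07 without wild type replicate 2.

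Atf6 encodes a membrane-bound transcription factor that is cut free when unfolded protein accumulates (ENSMUSG00000026663, chromosome 1, 170704674 to 170867771, minus strand). It was at 22.6, 26.1 and 37.0 CPM in wild type and at 31.2, 34.0 and 28.9 CPM in SKO. The wild type libraries spanned the whole SKO range, and the log2 fold change was 0.14 (95% interval -0.31 to 0.58, edgeR adjusted p = 0.678). Ern1 and Atf6 passed in none of their 17 alternatives, and with library totals only Atf6 stood at -0.12.

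Xbp1 encodes the transcription factor whose mRNA IRE1 cuts at the segment printed above (ENSMUSG00000020484, chromosome 11, 5520659 to 5525893, plus strand). It was at 36.7, 29.7 and 22.7 CPM in wild type and at 45.1, 38.1 and 41.7 CPM in SKO replicates 1 to 3. All SKO libraries were higher, with SKO replicate 2 just above wild type replicate 1. The log2 fold change of 0.49 (SE 0.20, 95% interval 0.07 to 0.91) did not pass (edgeR adjusted p = 0.0788). It passed with DESeq2 (0.50, adjusted p = 0.0475), without wild type replicate 1 (0.67, adjusted p = 0.034), after correction for GC content and length (0.93, adjusted p = 0.00176) and with that correction and a replicate block (0.94, adjusted p = 0.00198). With library totals only it was 0.23 (adjusted p = 0.449).

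**Figure D4:**
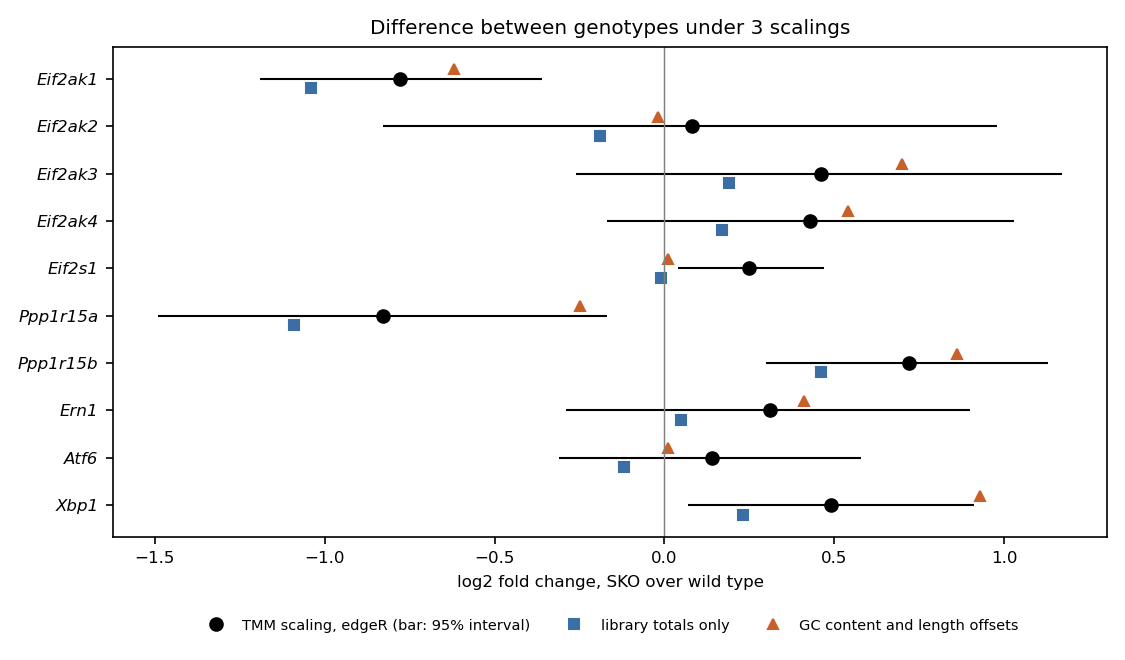
Log2 fold change of SKO over wild type for each of the 10 genes from the edgeR test with TMM scaling (dots, with the 95% interval), with library totals as the only scaling (squares) and with offsets for GC content and length (triangles). Ppp1r15a runs from -1.09 to -0.25 and Xbp1 from 0.23 to 0.93 across these settings, while Eif2ak1 stays between -1.04 and -0.62.

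The genes that act with the sensors moved in both directions. Of 17 sensor partners and relatives, 14 were tested, 3 were higher, 5 lower and 6 not passed (median log2 fold change -0.52, or -0.17 after correction for GC content and length and -0.78 with library totals). Over all tested genes the shares were 14.1% higher and 14.4% lower. Hspa5, the gene of the chaperone BiP that holds all 3 sensors inactive, fell from 1835 ± 146 to 675 ± 26.9 CPM (edgeR adjusted p = 4.49e-07). Pdia6, a disulfide isomerase that binds IRE1 and PERK, fell from 598 ± 35.6 to 310 ± 35.6 CPM (edgeR adjusted p = 2.59e-05). Rtcb, the gene of the ligase that rejoins the cut Xbp1 mRNA, fell from 63.6 ± 14.4 to 34.8 ± 4.00 CPM (edgeR adjusted p = 0.00248). Zbtb8os, the gene of its cofactor archease, rose from 129.5 ± 4.56 to 209 ± 21.02 CPM (edgeR adjusted p = 0.000416). Traf2, the adaptor between IRE1 and stress kinases, fell from 14.2 ± 1.33 to 6.82 ± 0.627 CPM (edgeR adjusted p = 0.00919). Downstream of TRAF2, the kinase gene Map3k5 was at 2.19 ± 0.371 and 4.81 ± 0.413 CPM (log2 fold change 1.13, edgeR adjusted p = 0.0735). Tmbim6, whose protein restrains IRE1, fell from 228 ± 22.4 to 151 ± 13.8 CPM (edgeR adjusted p = 0.00171) and stood at a log2 fold change of -0.18 (adjusted p = 0.308) after correction for GC content and length. With that correction Map3k5 passed (1.31, adjusted p = 0.0456), and with a replicate block as well Traf2 did not (-0.78, adjusted p = 0.0577).

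Of the 2 proteases that release ATF6 from the membrane, Mbtps2 rose from 13.99 ± 1.52 to 22.7 ± 2.55 CPM (edgeR adjusted p = 0.0283) and Mbtps1 was at 46.7 ± 7.93 and 42.0 ± 0.772 CPM (log2 fold change -0.15, edgeR adjusted p = 0.534). Mbtps2 did not pass with library totals (0.43, adjusted p = 0.167), after correction for GC content and length (0.31, adjusted p = 0.322) and without wild type replicate 1 (0.61, adjusted p = 0.0858), SKO replicate 2 (0.72, adjusted p = 0.0701) or SKO replicate 3 (0.60, adjusted p = 0.119). Relatives of the sensors were measured at differing levels. Creb3, of the same membrane-bound factor family as Creb3l2, was at 18.2 ± 6.10 and 10.01 ± 2.93 CPM (log2 fold change -0.85, adjusted p = 0.0554), and it passed without wild type replicate 2 (-1.11, adjusted p = 0.0166) or SKO replicate 1 (-1.11, adjusted p = 0.0336). Atf6b was at 4.83 ± 0.951 and 3.49 ± 1.49 CPM (log2 fold change -0.46, edgeR adjusted p = 0.478). Ern2, the second IRE1 gene, averaged 0.682 CPM in wild type, had no count in any SKO library and was not tested. Creb3l2, a membrane-bound transcription factor gene of the same kind as Atf6, rose from 2.92 ± 0.585 to 6.91 ± 2.64 CPM (edgeR adjusted p = 0.038). Its call was lost with library totals (1.00, adjusted p = 0.0939), no low-count filter (1.24, adjusted p = 0.0554), a replicate block (adjusted p = 0.0572) and without wild type replicate 1 or 2 or SKO replicate 1 or 2 (0.91 to 1.30, adjusted p 0.0761 to 0.21).

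Reported targets of the 3 sensors gave different counts, with the 10 genes themselves left out of each list. Each count stands beside 14.1% higher and 14.4% lower among all tested genes. Of 9 XBP1 targets, 5 were lower, 3 not passed and 1 higher, namely Sec61a1, the gene of the ER protein channel, at 25.5 ± 5.40 and 38.7 ± 5.83 CPM (median log2 fold change -0.38). Of 10 ATF6 targets, 4 were lower (Calr, Sdf2l1, Hspa5 and Creld2), 2 higher (Herpud1, 28.4 ± 2.31 to 94.6 ± 19.7 CPM, and Hsp90b1, 459 ± 72.1 to 827 ± 42.0 CPM) and 4 not passed (median -0.32). Sdf2l1, an ER chaperone cofactor gene on both lists, fell from 86.7 ± 17.2 to 26.6 ± 5.09 CPM (edgeR adjusted p = 2.18e-05). Other genes counted as lower here were also counted above. Dnajc3, an XBP1 target, is among the kinase regulators, and Pdia6 (XBP1 target) and Hspa5 are among the sensor partners. The counts of the lists are therefore not separate from each other. Of 18 genes of the ATF4 and CHOP axis, which lies downstream of all 4 kinases, 14 were tested, 9 were higher, 1 lower and 4 not passed (median 1.14, the same with Chac1, at 0 counts in wild type, set to its bound). The 3 genes called higher with the smallest p were Asns, Slc3a2 and Chac1. Asns rose from 17.4 ± 5.78 to 158 ± 24.8 CPM (edgeR adjusted p = 9.09e-07) and Slc3a2 from 109 ± 18.5 to 291 ± 20.4 CPM (edgeR adjusted p = 5.32e-06). Chac1 reached 8.89 ± 2.61 CPM in SKO (edgeR adjusted p = 9.26e-06). The gene of that axis called lower was Ero1l, an ER oxidase gene, at 137 ± 11.6 and 63.5 ± 8.65 CPM (edgeR adjusted p = 5.05e-05). Ppp1r15a is itself a target of ATF4 and CHOP and, as above, was lower in all 3 SKO libraries without passing the test. Sec61a1 did not pass with library totals (0.34, adjusted p = 0.238) and without wild type replicate 2 or 3 or SKO replicate 1 or 3 (0.46 to 0.60, adjusted p 0.0743 to 0.159).

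Of 7 transcripts known to be cut by IRE1 beside Xbp1, 3 could be tested, and of these 0 were higher, 1 lower and 2 not passed. Among all tested genes 28.5% were called, 14.1% higher and 14.4% lower, so 1 call among 3 genes is close to that background. Hgsnat, a lysosomal enzyme gene, fell from 23.7 ± 1.496 to 8.498 ± 1.02 CPM (edgeR adjusted p = 0.000316). Bloc1s1, a common marker of this cutting, was at 1.43 ± 0.480 and 1.29 ± 0.231 CPM (log2 fold change -0.15, edgeR adjusted p = 0.907). It rested on 29, 26 and 14 counts in wild type and 17, 11 and 15 counts in SKO replicates 1 to 3. Its 95% interval was -1.72 to 1.42, so changes within that interval could not be told from the spread between libraries. Sparc, a secreted matrix protein gene, was at 4.19, 9.10 and 5.44 CPM in wild type and 6.09, 8.94 and 23.9 CPM in SKO replicates 1 to 3, with SKO replicate 3 the highest (log2 fold change 1.05, edgeR adjusted p = 0.106). The median of these 3 genes was -0.15, and it was 0.23, with 1 gene higher and 1 lower, after correction for GC content and length. With that correction 1502 of 13452 genes were higher and 1651 lower.

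**Figure D5:**
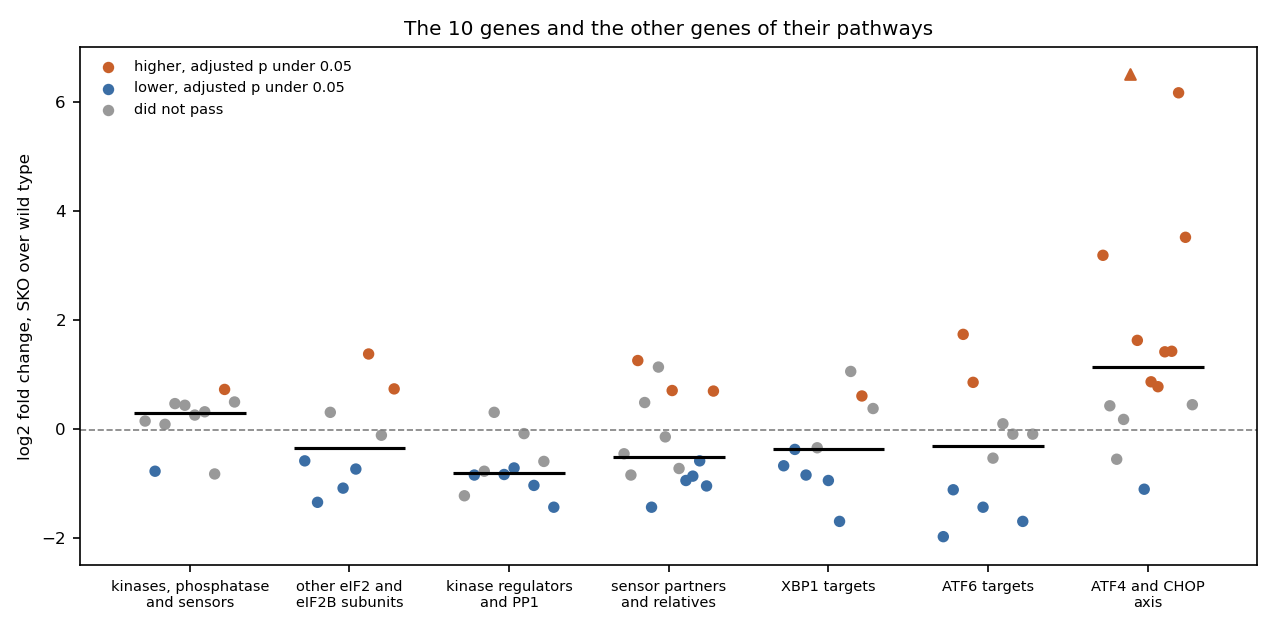
Log2 fold change of SKO over wild type for each tested gene of the 10 and of the other lists, without the transcripts cut by IRE1. Genes that passed the test are coloured by direction and the others are in grey. Black bars are list medians (0.28 for the 10 genes, -0.81 for kinase regulators and PP1, 1.14 for the ATF4 and CHOP axis), the dashed line is the median of all tested genes (-0.03), and the triangle at the upper edge is Chac1, which had no wild type count.

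RefSeq promoter windows on GRCm38.p6, from 250 bases before to 50 after a start site, matched 8 of the 10 genes (9 windows, since Eif2ak4 has a second start). They were searched on both strands for 5 motifs: the ER stress element ERSE (CCAAT and CCACG with 9 bases between), ERSE-II (ATTGG and CCACG with 1 base between), the unfolded protein response element (TGACGTGG), the C/EBP-ATF element (TGATGNAA) and the interferon-stimulated element (GAAA and GAAACT with 2 bases between). These are held by 0.119, 0.0365, 0.676, 3.97 and 0.271% of all 32851 windows. The window of Eif2s1 held 1 match to the interferon-stimulated element, which is a match of letters and no shown binding site, and the other 8 windows held none of the 5 motifs. That window (78861822 to 78862121) begins downstream of the GENCODE start of Eif2s1 (78861819). By that annotation the match, at 78861860 to 78861871, lies inside the gene, and the bases before the GENCODE start were not searched. A window without a match says only that these letters are not in it.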

How the data were processed

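Poly(A) RNA was measured by Smart-seq2 in 3 Srp68 SKO and 3 wild type libraries. The submitters' processing notes name FastQC, Trim Galore 0.6.4 and HISAT2 2.0.5, and the build GRCm38 (mm10). The sources used here do not give the counter, its use of strand or its annotation. Per the file headers and values, the authors deposited whole-number read counts for each gene, with no normalization. Columns written CKO were matched to the SKO labels by genotype and replicate number. Without molecular identifiers, amplified copies of a molecule count as separate reads.

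GENCODE vM21 gave symbols, positions and exon lengths for 49325 identifiers and none for 259. In R 4.3.3, edgeR 4.0.16 (filterByExpr, TMM, two-sided quasi-likelihood test on genotype) was run on all genes, with Benjamini-Hochberg adjustment and a threshold of 0.05. Standard errors and 95% intervals came from that fit, and the code was tested on simulated data. Alternatives were other scalings (size factors of DESeq2, upper quartile, library totals), other filters (none, or 5 CPM in 3 libraries), robust fitting, DESeq2 1.42.0, limma-voom (limma 3.58.1), loess offsets for GC content and length (span 0.3), a replicate block without and with those offsets, and each library left out. The loess offsets were fitted to each library without regard to genotype. They therefore also take out any genotype difference that follows GC content or length. Copies were sought with blastn (90% identity over 200 bases).

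The members, lists and alternatives were chosen with earlier results of these data known. Named genes were the members, Srp68, genes of the eIF2 and eIF2B, regulator and sensor partner lists, and up to 3 passing genes in each direction of the other lists by smallest p. Bloc1s1, Sparc and the cell markers given with values were named after those were seen, as were genes that overlap or copy a member. A list of interferon-induced genes is not reported here.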

Additional observations from a re-analysis of the deposited data

How the results depend on the processing

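Eif2ak1 passed in every one of the 17 alternatives and Ppp1r15b in 15. With library totals only, 1010 of all 13474 tested genes were higher and 3168 lower. Of the same genes, 2029 were higher and 1799 lower with upper-quartile scaling, 2146 and 2106 with DESeq2, and 1945 and 1777 with limma-voom. Of 13452 genes, 1502 were higher and 1651 lower with GC and length offsets, and 1523 and 1632 with the replicate block too. Of 8771 genes past the filter of 5 CPM, 1923 were higher and 1981 lower. With single libraries left out, 1361 to 1916 genes were higher and 1373 to 1851 lower. Of the 10 genes, 0 were higher with library totals, 2 with upper-quartile scaling, limma-voom and GC and length offsets (also with the replicate block) and 3 with DESeq2. 2 were lower with library totals, a filter of 5 CPM and DESeq2. Leaving out single libraries gave 1 to 2 higher and 1 to 2 lower. Of the eIF2 and eIF2B genes, 1 was higher and 2 were lower with GC and length offsets, with or without the replicate block. Of the kinase and phosphatase regulators, 8 were lower with library totals, and leaving out single libraries gave 0 to 1 higher and 3 to 6 lower. Of the sensor partners, 1 was higher with library totals, 3 were lower with the replicate block and offsets, and 1 to 3 were higher with single libraries left out. Of the XBP1 targets, 0 were higher with library totals and 2 with upper-quartile scaling, a filter of 5 CPM, DESeq2, the offsets, the replicate block and both together, and 0 to 2 with single libraries left out. Of the transcripts cut by IRE1, 1 was higher without a low-count filter and with the offsets, with or without the block, and 0 to 1 with single libraries left out. Without a low-count filter, 2016 of 25887 genes were higher and 2070 lower. The cause of these shifts was not tested.

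Replicate numbers are shared between genotypes, but libraries of the same number did not deviate together over all genes (correlations 0.017, -0.051 and 0.034). With 3 libraries per genotype, a shared preparation that acts weakly or on few genes would not be seen in this check. Whether the same number marks a shared preparation is not known. With the replicate block, 1976 genes were higher and 1991 lower, with 1 of the 10 genes in each direction. With library totals the list medians were -0.61 for eIF2 and eIF2B, -0.64 for XBP1 targets, -0.58 for ATF6 targets and -0.41 for transcripts cut by IRE1. Of the 10 genes Eif2ak2 had the fewest counts, 191 over the wild type and 139 over the SKO libraries.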
